A study of Sus scrofa with 4 samples.

Results

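The genes described here form the oxygen-sensing pathway of the hypoxia-inducible factors, HIF, together with genes that these factors switch on. A list of 10 genes was asked for by symbol, and 5 of them had a probeset annotated to that symbol alone. These were HIF1A and EPAS1, the oxygen-regulated subunits, EGLN1, an oxygen sensor, and the targets ADM and ERO1A. They are 5 of the 6765 genes named on the array, and all 5 lay above the filter on dim probesets. EGLN3, BNIP3, NDRG1 and PDK1 are not analysed here. DDIT4 had a probeset that carries its symbol for 2 gene entries. It falls outside the one-symbol rule, so its values are given but not counted with the 5.

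The cells were fibroblasts from the dermal cones of Duroc pigs, a breed used as a model of scarring, grown from deep and from shallow back wounds biopsied at 20 weeks. The study used 2 pigs, and each gave 1 deep and 1 shallow culture, so there were 2 deep and 2 shallow arrays. Both kinds of culture were grown to confluence in medium with 10% serum at 37 °C in 5% CO2, and the sources used here give neither the oxygen level nor the passage. The assignment of arrays to pigs follows the partner numbers in the sample titles, read in the order in which the samples are listed. Signals are MAS5 intensity units on a porcine Affymetrix array, and arrays are named by depth and pig, always pig 1 before pig 2.

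HIF is a pair of proteins, an oxygen-regulated alpha subunit and the constant partner ARNT. With oxygen present, EGLN enzymes hydroxylate prolines of the alpha subunit, the VHL ligase marks it for destruction, and target genes stay quiet. When oxygen is short the alpha subunit persists and induces genes of glycolysis, blood vessel growth, matrix modification and mitochondrial turnover. This control acts mainly on the protein, so messenger RNA of HIF1A or EPAS1 does not measure HIF activity, while messenger RNA of the targets lies downstream of it. In skin wounds the pathway is known for its response to poor blood supply.

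The arrays differed in quality measures that touch several results below. The actin ratio, 3′ over 5′ probeset signal, was 3.28 and 6.10 on the deep arrays, against 1.96 and 2.41 on the shallow arrays. Deep arrays gave 1.75 and 2.06 for the same ratio of GAPDH, and shallow arrays 1.53 and 1.67. An RNA integrity number above 8 was recorded for every culture. Hybridization controls were brightest on deep pig 2, at 8578, with 3841 on deep pig 1 and 2762 and 3167 in the shallow pair. The part of these controls in the results was not tested. Deep pig 2 also began its top 1% of signals highest, at 6886, with 5619 on deep pig 1 and 4732 and 5142 in the shallow pair. All 12 measured fibroblast markers were above the highest control for absent transcripts on every array, and they summed to 64455 and 98865 on the deep arrays, against 40750 and 47368 on the shallow arrays. The 8 measured epithelial markers summed to 307 and 164 on the deep arrays, against 8347 and 195 on the shallow arrays. All 8 were above the absent controls on the shallow array of pig 1, and 2 to 4 of them on each other array. The 14 measured markers of cycling cells summed to 1884 and 2218 on the deep arrays, against 14170 and 4455 on the shallow arrays. Of 9 leukocyte markers, 1 to 4 were above the absent controls on an array. The part of the marker differences in the results below was not tested beyond the values given without an array. The actin ratio was also fitted as a covariate in place of the pig, with the values given where they bear on a result. It was higher on both deep arrays than on both shallow arrays, so its part and that of depth cannot be told apart.

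None of the 5 hypoxia genes differed between deep and shallow cultures past the threshold. HIF1A and ADM read higher on both deep arrays than on both shallow arrays, by a mean factor of 1.61 and 1.57. EPAS1, EGLN1 and ERO1A read higher in deep than in shallow cultures of pig 1 and lower in pig 2. Apart from HIF1A, each had its highest signal on the deep array of pig 1, as had DDIT4 and most of a wider list of HIF targets. In limma with the pig as a block, 0 of the 5 passed an adjusted p of 0.05, and 0 passed an unadjusted p of 0.05. Over all 14399 tested probesets, 0.236% passed the adjusted p as higher and 0.104% as lower in deep, so a count of 0 among 5 is near that background. At an unadjusted p under 0.05 in limma, 999 of the 14399 were higher and 996 lower. In 2 of 5 genes the lower deep signal exceeded the higher shallow one, against 23.2% of all tested probesets, and in 0 of 5 was the reverse the case, against 25.5%. Opposite signs in the pigs were seen for 3 of 5, against 38.6%. The median log2 difference of the 5 was 0.25, against -0.02 over all tested probesets. Taken within each pig, where other genes hold the middle place, the median was 0.47 in pig 1 and -0.43 in pig 2. In a bulk culture fewer cells of a type and less RNA per cell cannot be told apart.

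**Figure D1:**
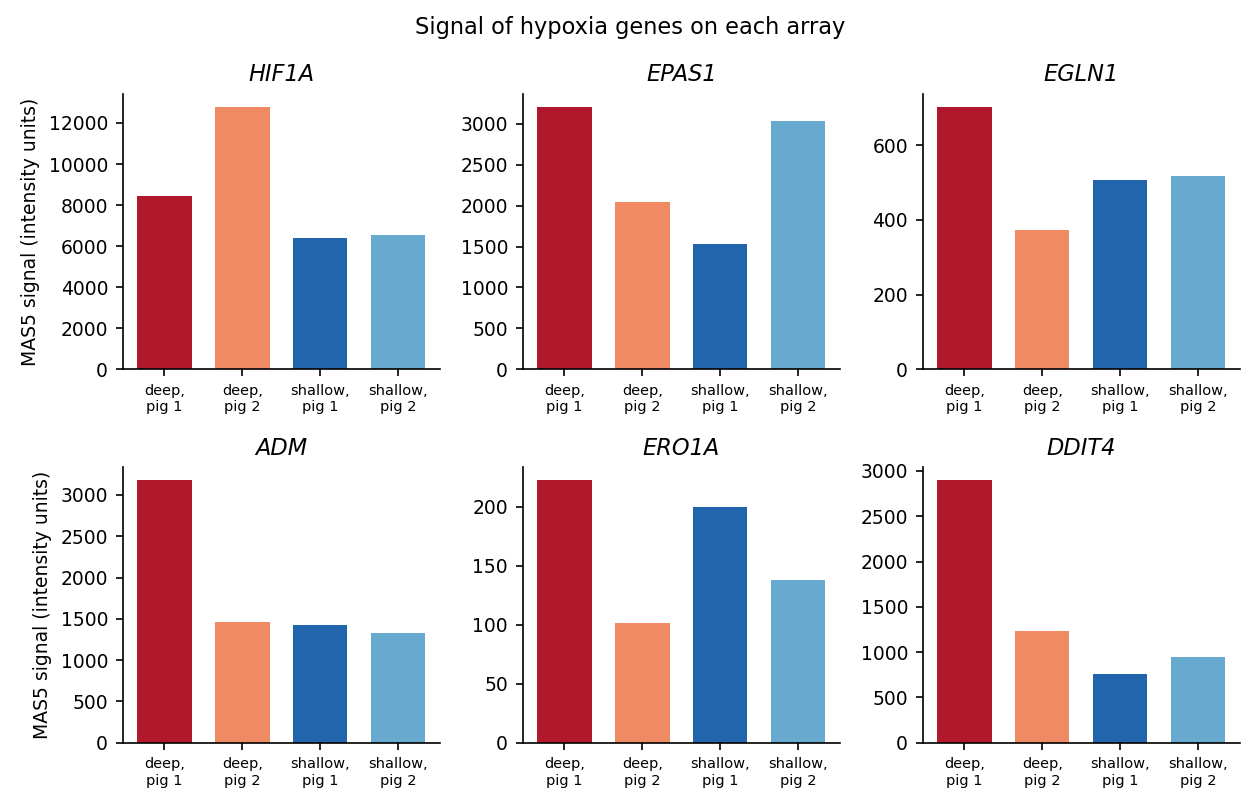
MAS5 signal in intensity units (vertical axes, each starting at 0) of HIF1A, EPAS1, EGLN1, ADM, ERO1A and DDIT4 on the 2 deep and the 2 shallow arrays, 1 bar per array. The deep array of pig 1 has the tallest bar for every gene but HIF1A, whose tallest bar is the deep array of pig 2, at 12796.

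HIF1A encodes the alpha subunit of HIF-1, present in most cells. Its brightest probeset read 8436 and 12796 on the deep arrays, against 6394 and 6538 on the shallow arrays. The groups did not overlap, and the deep arrays differed from each other by more than the deep array of pig 1 did from either shallow array. The log2 difference was 0.68 ± 0.31 (SE, n = 2 pigs; limma, adjusted p = 0.379), with a 95% interval from -0.03 to 1.39, made of 0.40 in pig 1 and 0.97 in pig 2. A second HIF1A probeset, dimmer but past the filter, read 175 and 180 on the deep arrays, against 146 and 139 on the shallow arrays. It pointed the same way with a smaller log2 difference of 0.32 ± 0.31 (SE; limma, adjusted p = 0.718). The other 2 HIF1A probesets were dim, at most 31.6, and did not pass the filter. The 4 arrays had the same order by HIF1A signal as by actin ratio. With that ratio as a covariate in place of the pig the log2 difference was 0.04, with an interval from -0.90 to 0.99. The ratio and the depth cannot be told apart here. After quantile normalization the log2 difference was 0.10.

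EPAS1 encodes the alpha subunit of HIF-2, which is found mostly in endothelial, kidney and some mesenchymal cells. Its probeset read 3210 and 2040 on the deep arrays, against 1535 and 3033 on the shallow arrays. The groups overlapped, and both the highest and the lowest signal were in pig 1. In pig 1 it was 2.09-fold higher in the deep culture, and in pig 2 the log2 difference was -0.57. The mean log2 difference was 0.25 ± 0.39 (SE, n = 2 pigs; limma, adjusted p = 0.830), with an interval from -0.67 to 1.16. Its lowest signal was on the shallow array of pig 1, the array with the high epithelial markers, and without that array the log2 difference was -0.25. With deep pig 1 left out instead it was -0.08. Endothelial cells are a known source of EPAS1. Of 11 endothelial markers, 5 to 7 were above the absent controls on an array. PECAM1, ESAM, EGFL7, ENG and FLT1 were above them on all 4 arrays, while CDH5, KDR, TEK and TIE1 were below them on every array. PECAM1, the brightest, read 223 and 281 on the deep arrays, against 601 and 152 on the shallow arrays. All 11 summed to 523 and 733 on the deep arrays, against 980 and 487 on the shallow arrays.

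The partners of these subunits were dim or did not pass either. ARNT, the common partner, read 32.5 and 39.9 on the deep arrays, against 24.6 and 12.1 on the shallow arrays. It fell short of the filter and was not tested. ARNT2, a related partner best known from nerve tissue, read 190 and 336 on the deep arrays, against 99.5 and 72.4 on the shallow arrays. The groups did not overlap, and the log2 difference was 1.57 ± 0.39 (SE; limma, adjusted p = 0.140).

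EGLN1 encodes PHD2, the prolyl hydroxylase that sets HIF-1 alpha levels in normal oxygen and is itself a HIF target. Its brightest probeset read 703 and 373 on the deep arrays, against 507 and 517 on the shallow arrays. The shallow arrays lay close together, between the deep arrays, so the mean difference was near 0 while the deep arrays differed 1.88-fold. The log2 difference was 0.47 in pig 1 and -0.47 in pig 2, with a mean of -0.00039 ± 0.32 (SE, n = 2 pigs; limma, adjusted p = 1.00) and an interval from -0.73 to 0.73. A second probeset past the filter repeated the pattern, at 444 and 263 on the deep arrays against 328 and 393 on the shallow arrays. The remaining probeset, not past the filter, read at most 34.6.

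EGLN2, which encodes the related hydroxylase PHD1, read 293 and 473 on the deep arrays, against 288 and 295 on the shallow arrays. Its log2 difference was 0.35 ± 0.30 (SE; limma, adjusted p = 0.671), and unlike EGLN1 it was highest on the deep array of pig 2. Over the list of other subunits, hydroxylases and partners of the VHL complex, 20 genes were asked for, 9 had a named probeset and 8 passed the filter. VHL and the asparagine hydroxylase gene HIF1AN were among those not analysed here. None of the 8 rose or fell, 1 had an unadjusted p under 0.05, which was ARNT2, and 2 had opposite signs in the pigs. Over the 5272 named genes past the filter, 16 rose and 5 fell. At an unadjusted p under 0.05, 390 of these named genes were higher and 425 lower, and 36.0% had opposite signs. The 8 genes had a median log2 difference of 0.24, against -0.04 over the named genes.

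ADM encodes adrenomedullin, a secreted peptide that widens blood vessels and is a strongly HIF-induced gene. Its probeset read 3179 and 1463 on the deep arrays, against 1429 and 1328 on the shallow arrays. The deep array of pig 1 stood apart, and the other 3 arrays lay within a factor of 1.10 of each other. The log2 difference was 0.65 ± 0.32 (SE, n = 2 pigs; limma, adjusted p = 0.426), with an interval from -0.09 to 1.39. It was 1.15 in pig 1 and 0.14 in pig 2. Leaving out deep pig 1 gave 0.09, and leaving out deep pig 2 gave 1.21.

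ERO1A encodes the oxidase of the endoplasmic reticulum that drives disulfide formation and that hypoxia induces. Its probeset read 223 and 102 on the deep arrays, against 200 and 138 on the shallow arrays. The deep arrays were at the top and the bottom of the range, with the shallow arrays between them. The log2 difference was -0.14 ± 0.33 (SE, n = 2 pigs; limma, adjusted p = 0.894), with an interval from -0.90 to 0.62. It was 0.15 in pig 1 and -0.43 in pig 2, and leaving out deep pig 2 gave a mean of 0.42.

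DDIT4 encodes REDD1, an inhibitor of the growth kinase mTORC1 that hypoxia, glucocorticoids and energy stress induce. It read 2898 and 1233 on the deep arrays, against 761 and 949 on the shallow arrays. Both deep arrays were above both shallow arrays, and the deep array of pig 1 was 2.35-fold above that of pig 2. The log2 difference was 1.15 ± 0.38 (SE, n = 2 pigs; limma, adjusted p = 0.236), with an interval from 0.27 to 2.03. It was 1.93 in pig 1 and 0.38 in pig 2. This was the largest difference among the 6 genes, and it too did not pass over all probesets.

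**Figure D2:**
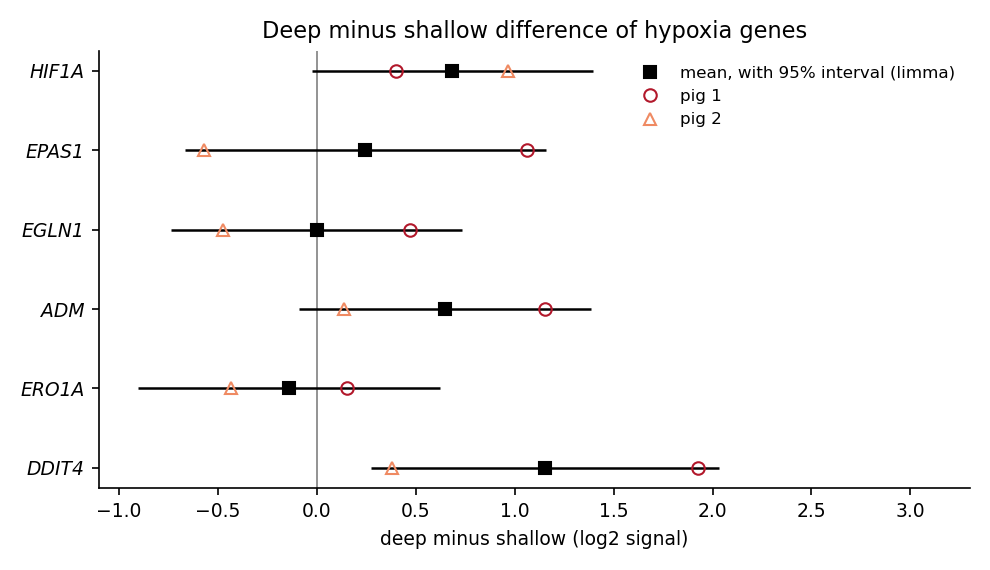
Difference in log2 signal, deep minus shallow (horizontal axis), of HIF1A, EPAS1, EGLN1, ADM, ERO1A and DDIT4. Squares are means over 2 pigs with their 95% interval from limma, circles are pig 1 and triangles pig 2. The intervals of the 5 genes other than DDIT4 include 0, and pig 1 lies right of pig 2 for all but HIF1A.

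The 2 deep arrays, 1 from each pig, differed from each other. They also differed in actin ratio, 3.28 in pig 1 and 6.10 in pig 2, and in hybridization controls, 3841 and 8578. With 1 deep array per pig, the parts of pig, culture and array quality cannot be told apart. EPAS1, EGLN1, ADM and ERO1A were 1.57-fold, 1.88-fold, 2.17-fold and 2.19-fold higher on the deep array of pig 1 than on that of pig 2. On the shallow arrays EGLN1 and ADM differed little between pigs, by 0.03 and -0.11 on the log2 scale, pig 2 minus pig 1. EPAS1 differed there by 0.98 and ERO1A by -0.54. HIF1A went the other way on the deep arrays, by 0.60, and differed by 0.03 on the shallow arrays. Thus 4 of 5 genes had their highest signal on the deep array of pig 1, against 18.2% of all tested probesets and 15.4% of named genes. With shallow pig 1 left out the count was 4 of 5, against 21.4% of named genes, and with deep pig 2 left out it was 5 of 5, against 32.6%. The count describes 1 array and was not planned in advance, so it carries no test. Both runs with an array left out keep that deep array.

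**Figure D3:**
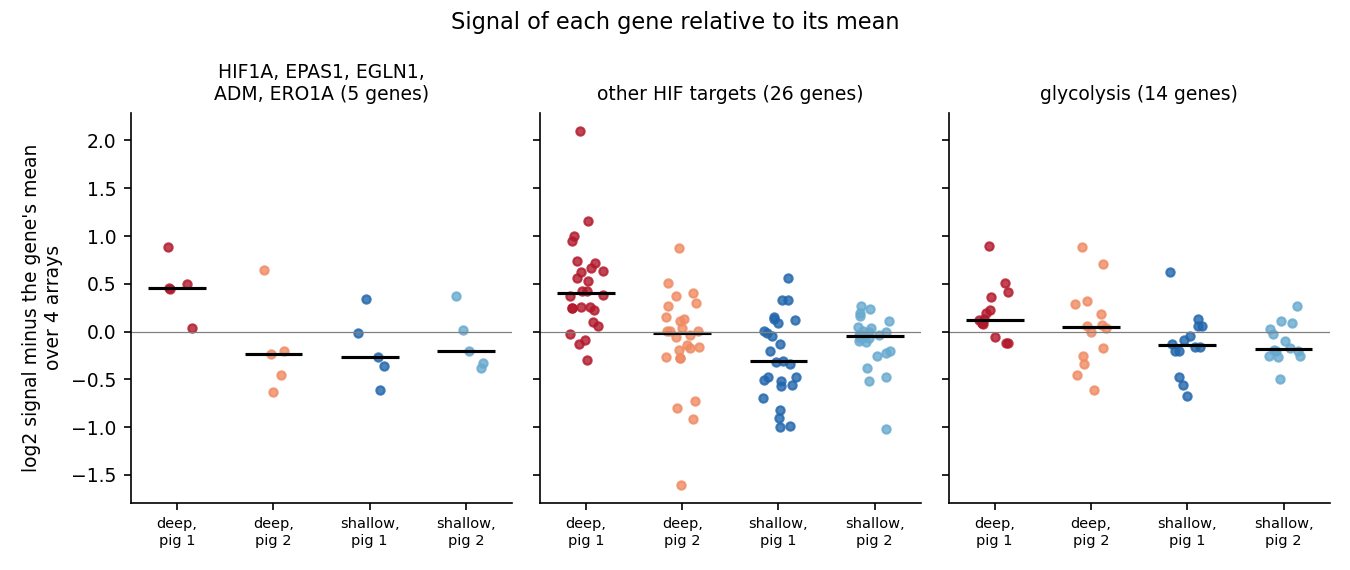
Log2 signal of each gene minus its own mean over the 4 arrays (vertical axis), by array, for the 5 genes, 26 other HIF targets and 14 glycolytic genes. Each point is a gene and each line a median. The median lines of the 5 genes and of the other targets are highest on the deep array of pig 1, and HIF1A is the point highest on that of pig 2.

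A wider list of HIF targets outside glycolysis also had most of its highest signals on the deep array of pig 1. Of 43 genes asked for, 36 had a named probeset and 26 passed the filter. P4HA1, PLOD2 and PFKFB3 are not analysed here. On the deep array of pig 1, 17 of the 26, or 65.4%, had their highest signal, against 4 on the deep array of pig 2, 4 on the shallow array of pig 1 and 1 on that of pig 2. Of all named genes, 15.4% were highest on the deep array of pig 1. With shallow pig 1 left out the count was 18 of 26, or 69.2%, against 21.4% of named genes. With deep pig 2 left out it was 20 of 26, or 76.9%, against 32.6%. For this list too the count was not planned in advance. Their median log2 difference was 0.41, against -0.04 over all named genes, and the separate medians of the pigs were 0.66 in pig 1 and -0.03 in pig 2. Leaving out deep pig 1 or shallow pig 1 gave a median of 0.22 in each case, and leaving out deep pig 2 or shallow pig 2 gave 0.51 and 0.55. With the actin ratio as a covariate it was 0.76. None rose or fell past the threshold, 5 had an unadjusted p under 0.05, all higher in deep, and 13, or 50.0%, had opposite signs in the pigs. Over the 5272 named genes, 390 were higher at an unadjusted p under 0.05, and 36.0% had opposite signs.

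**Figure D4:**
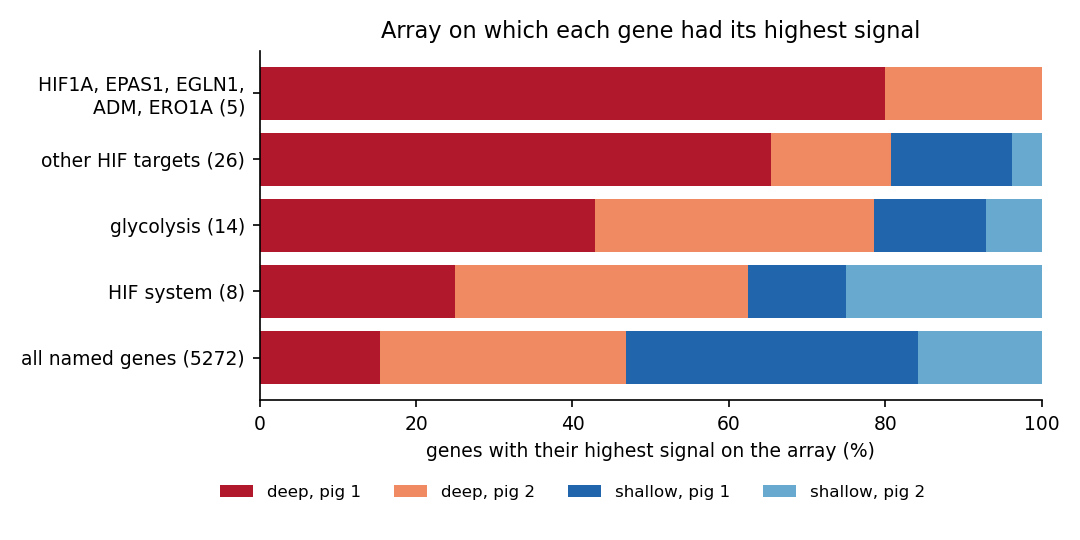
Share of genes, in percent (horizontal axis), whose highest signal was on each of the 4 arrays, for the 5 genes, 3 wider lists and all 5272 named genes. The deep array of pig 1 holds 80.0% of the 5 genes and 65.4% of the other HIF targets, against 15.4% of all named genes. The count by array was not planned in advance.

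Among these targets the genes of matrix, transport and transcription did not all follow the same course. LOX, the lysyl oxidase that cross-links collagen, read 1991 and 1676 on the deep arrays, against 649 and 1289 on the shallow arrays. It differed by 1.00 ± 0.34 on the log2 scale (SE; limma, adjusted p = 0.250). VEGFA, the main growth factor of blood vessels, read 2941 and 3094 on the deep arrays, against 2027 and 2140 on the shallow arrays. The groups did not overlap and the pigs gave nearly equal log2 differences of 0.54 and 0.53, with a mean that did not pass (limma, adjusted p = 0.433). BNIP3L, a mitophagy receptor related to BNIP3, read 3006 and 2056 on the deep arrays, against 1392 and 2032 on the shallow arrays, with log2 differences of 1.11 in pig 1 and 0.02 in pig 2.

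SLC2A1, the basal glucose transporter GLUT1, read 1052 and 739 on the deep arrays, against 946 and 845 on the shallow arrays. ANGPTL4, a lipase inhibitor, read 366 and 156 on the deep arrays, against 342 and 281 on the shallow arrays. In both genes the deep arrays enclosed the shallow ones, as for EGLN1 and ERO1A. KDM3A, a histone demethylase, read 76.3 and 70.0 on the deep arrays, against 50.4 and 61.9 on the shallow arrays, differing by 0.39 ± 0.39 on the log2 scale (SE; limma, adjusted p = 0.723). CA9, a carbonic anhydrase much used as a hypoxia marker, was dim, at 23.2 and 3.37 on the deep arrays, against 55.7 and 32.6 on the shallow arrays. It did not pass the filter, and on deep pig 2 it lay under the highest absent control.

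The smallest p-values in the list belonged to NFIL3 and HMOX1. NFIL3, a basic leucine zipper repressor, read 441 and 603 on the deep arrays, against 186 and 236 on the shallow arrays, a difference of 1.30 ± 0.28 on the log2 scale (SE; limma, adjusted p = 0.100). HMOX1, heme oxygenase 1, which NRF2 also induces, read 998 and 792 on the deep arrays, against 545 and 295 on the shallow arrays, differing by 1.15 ± 0.28 on the log2 scale (SE; limma, adjusted p = 0.140). Both were named for an unadjusted p under 0.05 and the same sign in both pigs, so that agreement follows from the choice. Their groups did not overlap. Both deep arrays were above both shallow arrays in 10 of the 26 targets, against 23.7% of named genes.

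The following 3 genes were picked after their values were seen, as those of the 26 with the widest fold range over the arrays. ANKRD37 read 162 and 12.4 on the deep arrays, against 23.3 and 43.1 on the shallow arrays, and its value on deep pig 2 lay under the highest absent control. SLC2A3, the glucose transporter GLUT3, read 810 and 215 on the deep arrays, against 326 and 479 on the shallow arrays. In both genes deep pig 1 was the highest and deep pig 2 the lowest array. MXI1, an antagonist of MYC, read 225 and 102 on the deep arrays, against 53.9 and 84.7 on the shallow arrays. It was highest on deep pig 1 too, but lowest on shallow pig 1.

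**Figure D5:**
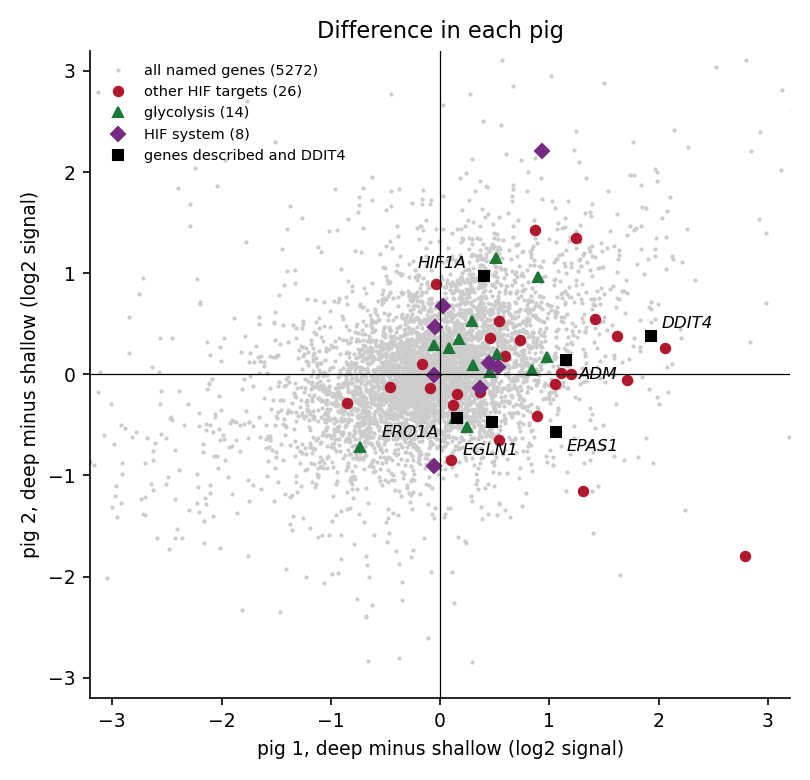
Deep minus shallow difference in log2 signal in pig 1 (horizontal axis) and pig 2 (vertical axis), 1 point per gene. Grey points are all 5272 named genes past the filter, of which 60 lie outside the axes at 3.2. Coloured symbols are the HIF target, glycolysis and HIF system lists, and black squares the 5 genes and DDIT4. The HIF targets spread to the right of 0 and around 0 vertically, with medians of 0.66 and -0.03.

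Glycolytic genes, of which HIF-1 induces many, were measured for 14 of 18 genes. None rose or fell past the threshold, and 10 were higher in deep in both pigs, 1 was lower in both and 3 had opposite signs. Over the 5272 named genes these counts were 1578, 1795 and 1899. Their median log2 difference was 0.25, and the separate medians of the pigs were 0.29 in pig 1 and 0.18 in pig 2. LDHA, lactate dehydrogenase A, read 8352 and 6494 on the deep arrays, against 5827 and 5663 on the shallow arrays (log2 difference 0.36 ± 0.29, SE; limma, adjusted p = 0.645). PGK1, phosphoglycerate kinase, read 5568 and 6543 on the deep arrays, against 4555 and 4541 on the shallow arrays (0.41 ± 0.28, SE; limma, adjusted p = 0.571).

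At an unadjusted p under 0.05, 1 of the 14 glycolytic genes was higher and 1 lower, against 390 and 425 of 5272 named genes. GAPDH, the higher one, differed by 0.83 ± 0.32 on the log2 scale (SE; limma, adjusted p = 0.309), and its order over the arrays was that of the actin ratio, as for HIF1A. PFKP, the platelet form of phosphofructokinase, read 297 and 211 on the deep arrays, against 494 and 347 on the shallow arrays (-0.73 ± 0.28 on the log2 scale, SE; limma, adjusted p = 0.310).

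PDK1 acts by blocking pyruvate dehydrogenase, the gate from glycolysis to the citric acid cycle. Of 12 genes for that complex and its regulators 9 passed the filter, 0 rose or fell, and 5 had both deep arrays below both shallow arrays, against 28.4% of named genes. Their median log2 difference was -0.32. DLAT, a catalytic subunit, read 252 and 205 on the deep arrays, against 453 and 346 on the shallow arrays, differing by -0.80 ± 0.28 on the log2 scale (SE; limma, adjusted p = 0.267). PDHA1, the subunit that the kinases phosphorylate, read 582 and 546 on the deep arrays, against 626 and 355 on the shallow arrays. The kinase gene PDK4 read 339 and 117 on the deep arrays, against 277 and 842 on the shallow arrays, with opposite signs in the pigs. PDK2 is not analysed here, and PDK3 differed by 0.04 ± 0.36 on the log2 scale (SE; limma, adjusted p = 0.978).

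Partners of the remaining genes were measured in part, and none rose or fell past the threshold. For adrenomedullin, the receptor gene CALCRL was below the absent controls on every array. RAMP1, which with CALCRL forms a receptor for the related peptide CGRP, read 323 and 176 on the deep arrays, against 198 and 90.7 on the shallow arrays, so it was higher in deep within each pig while the groups overlapped. RAMP2, which with CALCRL forms a receptor for adrenomedullin itself, read 52.5 and 59.8 on the deep arrays, against 96.6 and 72.1 on the shallow arrays. Its groups did not overlap and it was lower in deep, by -0.58 ± 0.39 on the log2 scale (SE; limma, adjusted p = 0.566). PAM, the enzyme that amidates peptide hormones such as adrenomedullin, read 2315 and 2578 on the deep arrays, against 1076 and 1792 on the shallow arrays, differing by 0.81 ± 0.28 on the log2 scale (SE; limma, adjusted p = 0.256).

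Among mitophagy and autophagy partners of BNIP3, 9 of 14 genes were measured, with a median log2 difference of 0.51 and separate medians of 0.79 in pig 1 and 0.02 in pig 2. SQSTM1, the cargo receptor p62, read 4718 and 5580 on the deep arrays, against 1473 and 3147 on the shallow arrays, differing by 1.25 ± 0.31 on the log2 scale (SE; limma, adjusted p = 0.140). GABARAPL1 and GABARAP, which build the autophagosome membrane, differed by 1.03 and 0.68 on the log2 scale without passing. These 3 genes were named for an unadjusted p under 0.05 and the same sign in both pigs. Their groups did not overlap, and the shallow array of pig 1 was the lowest. Both deep arrays were above both shallow arrays in 4 of the 9 genes, against 23.7% of named genes.

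For the mTORC1 axis of DDIT4, 5 of 13 genes passed the filter, with a median log2 difference of 0.48. TSC2, the brake on mTORC1 through which DDIT4 acts, read 52.7 and 76.4 on the deep arrays, against 31.0 and 56.1 on the shallow arrays. SESN1, a sestrin that also restrains mTORC1, read 112 and 96.9 on the deep arrays, against 59.6 and 72.7 on the shallow arrays. DDIT4L, the relative of DDIT4, was below the absent controls on every array.

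Of the disulfide-forming partners of ERO1A, 6 of 10 were measured, and for 4 of these the groups did not overlap with deep higher, against 23.7% of named genes. ERO1B and P4HB are not analysed here. PRDX4, a peroxiredoxin of the endoplasmic reticulum, read 3869 and 4893 on the deep arrays, against 3359 and 3306 on the shallow arrays, and was highest on the deep array of pig 2, where ERO1A was lowest. PDIA4, a disulfide isomerase, went the other way, with 911 and 962 on the deep arrays, against 1453 and 1417 on the shallow arrays (log2 difference -0.62 ± 0.26, SE; limma, adjusted p = 0.355). Of the relatives of NDRG1, NDRG2 read 78.5 and 68.2 on the deep arrays, against 69.0 and 60.8 on the shallow arrays, differing by 0.18 ± 0.38 on the log2 scale (SE; limma, adjusted p = 0.879).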

How the data were processed

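Total RNA from 2 deep and 2 shallow cultures was hybridized to single-colour arrays, and per the submitters' processing notes the authors made MAS5 signal intensities with GCOS 1.0. The deposited intensities are linear, and the mean of each array without its top and bottom 2% was 249.9, so arrays had been scaled to a common level. The scaling target is not given in the sources used here. No detection calls were used, and signals were set beside 23 control probesets for absent transcripts, whose highest was 13.6 to 30.9 on an array. The number of arrays limits the precision.

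Control probesets, 124 in all, were left out of the tests. Signals under 1 were set to 1 and taken to log2, and 14399 of 23999 probesets were kept, those whose mean reached the 40th percentile, a signal of 27.1. Names came from the platform annotation, which gave 1 symbol to 10069 probesets and several to 198. A gene was represented by its brightest probeset by mean log2. The depths were compared in limma 3.58.1 (R 4.3.3) by lmFit and a trended eBayes, with a block for the pig, because the series describes the wounds as paired. This leaves 1 residual degree of freedom, to which moderation added 6.88. P-values were adjusted by Benjamini and Hochberg over the 14399 probesets. With 2 pigs, the SE and p-values rest mainly on spread borrowed from other probesets, and less on a gene's own 2 pigs. They reach no further than these cultures. Across probesets, the arrays of one pig deviated from the means of their depths with a correlation of -0.01, so the pairing rests on the labels. The fit was tested on simulated data, where it recovered most large changes and few of the smallest. The share of false calls among all calls there was above the adjusted p threshold. The simulated arrays were independent, with no pig effect and no difference in array quality, so the outcome does not cover those features.

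The genes and lists were chosen with earlier results of these data known. Named were the 5 genes, DDIT4, a list of pathway genes chosen by role, and up to 3 further genes a list with an unadjusted p under 0.05 and the same sign in both pigs. ANKRD37, SLC2A3 and MXI1 were added for their range after their values were seen. Counts of genes by the array of their highest signal were not planned in advance.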

Additional observations from a re-analysis of the deposited data

How the results depend on the processing

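None of the 5 genes was called under any alternative run. Over all probesets 49 were called with the pig as a replicate block, 39 with quantile normalization and 49 with median centring. Fewer were called in other settings, 6 with signals under 16 set to 16 and 3 without the trend. The count was 0 without the block, 0 with no filter and 0 with the actin ratio as covariate. At an unadjusted p under 0.05 in limma the 3 settings that called 0 had 922, 1109 and 174 higher and 963, 1137 and 109 lower probesets, in that order. With the block 999 were higher and 996 lower. The run with no filter tested 23999 probesets and the others 14399, so its counts are not on the same base. With 1 array left out and no block, the lone array being assumed to vary like the others, 0 to 1597 were called, 0 without either deep array, 172 without shallow pig 1 and 1597 without shallow pig 2. The median log2 difference of the 5 genes, 0.25, was 0.95 with the actin ratio, 0.0987 with quantile normalization, 0.45 with DDIT4 added after its values were seen, and -0.08 to 0.59 with 1 array left out. HIF1A and ADM stayed higher in deep under every alternative run, at 0.04 to 0.98 for HIF1A and 0.09 to 1.86 for ADM. EGLN1 changed sign with quantile normalization (0.0681), with the actin ratio (0.95) and on its dimmest probeset (1.38). ERO1A did so with the actin ratio (1.24). With 1 array left out EPAS1 ranged from -0.25 to 0.74, EGLN1 from -0.46 to 0.46 and ERO1A from -0.70 to 0.42. These changes of sign are between values that did not pass, and their cause was not tested. Signals near the absent controls, such as those of CA9, ARNT and CALCRL, limit what can be read for those genes.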
